A study of Mus musculus with 20 samples.

Results

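The genes described here are 9 members of the Nodal and TGF-beta family pathway, chosen by symbol: the ligands Nodal, Gdf3 and Inhbb, the co-receptor Tdgf1, the secreted inhibitors Lefty1, Lefty2 and Cer1, and the intracellular inhibitors Smad7 and Skil. They were read from 3 tables of raw counts, which hold 25199 genes in all. All 9 were present among the 22729 genes counted in embryos and among the 20142 genes counted in embryoid bodies (EBs). In the table of mouse embryonic stem cells (mESCs), which lists 20159 genes, 8 were present and Cer1 was not.

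Nodal is a secreted signal of the TGF-beta family that binds activin receptors together with the co-receptor Tdgf1 (also called Cripto) and acts through the transcription factors Smad2 and Smad3 and their DNA-binding partner Foxh1. Among the genes it switches on are its own secreted inhibitors Lefty1 and Lefty2, so that the pathway limits itself. In the mouse embryo the pathway forms the primitive streak, the endoderm and the node, and later marks the left side of the body; in mESCs it is active through ligands that the cells make themselves.

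RNA was sequenced from 12 single whole C57BL/6 embryos at E8.5, of which 6 were Zmym2+/+ and 6 were Zmym2-/- (3 males and 3 females in either group), and all were chosen for the absence of visible abnormality. The other 8 libraries came from V6.5 cells (C57BL/6x129/SvJae), as mESCs in serum and LIF (day 0) and as EBs at day 3, with 2 libraries of clonal Zmym2-/- lines and 2 of clonal control lines at each stage. Lines are numbered as the samples are at each stage, and whether a number names the same line at both stages is not stated in the labels. The Zmym2- allele is a CRISPR frameshift in the first coding exon, made with the same guide in mice and cells, and the control lines were treated with a non-targeting guide. Each line is a single clone, so that p-values within a stage rest on the spread between clones of a genotype, culture included. Fits across stages took the 8 libraries as independent, although the same clones may occur at both stages.

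Libraries held 32016880 to 64057608 counts, and 1 CPM (counts over library size, with libraries scaled by TMM) was at least 32.02 counts. No libraries had identical counts. In mESCs Zmym2 fell from 70.0 ± 2.72 CPM (SD, n = 2) in control to 28.5 ± 1.3 CPM (SD, n = 2) in Zmym2-/- lines, and in EBs from 91.5 ± 0.36 to 31.1 ± 1.14 CPM (adjusted p = 3.07e-06 and 9.70e-08, edgeR). In embryos Zmym2 had 50.3 to 125 CPM in Zmym2+/+ and 25.4 to 67.1 CPM in Zmym2-/-, with overlap (log2 fold change -0.91, SE 0.252, adjusted p = 0.226). A frameshift need not remove the transcript, so that these levels check the labels only in part. Of the 8 markers of naive pluripotency (Zfp42, Klf4, Esrrb, Tbx3, Nr0b1, Prdm14, Tfcp2l1 and Nanog), all 8 were above 0.1 RPKM in mESCs of both genotypes, with summed levels of 464 to 729 RPKM, and all 8 fell from mESCs to EBs in both genotypes. The 12 embryos differed widely in markers of cell types: the summed level of 3 markers of embryonic blood ran from 27.7 to 9787 RPKM in Zmym2+/+ and from 44.9 to 4276 RPKM in Zmym2-/- embryos, and the summed level of 6 markers of node and notochord was 78.6 and 196 RPKM in Zmym2-/- embryos 5 and 6 and 12.3 to 46.2 RPKM in the other 10.

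Lefty1 and Lefty2 are neighbouring copies, 35918 bases apart on chromosome 1 (GRCm38; Lefty2 at 180893108 to 180899103 and Lefty1 at 180935022 to 180938400, both on the plus strand). Their coding sequences are each 1107 bases long and 91.9% identical, with an identical run of 140 bases at most. Reads that lie within such a run cannot be told apart by gene, which bears on every value of the pair.

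Over the whole transcripts, 73 of the 1521 windows of 100 bases in Lefty1 and 73 of the 2374 in Lefty2 also occur in the other gene. How the counting treated reads that fit both genes is not given in the sources used here. The counts of each may therefore hold reads of the other or lack reads that fit both, and how many was not measured. The same limit holds for Tdgf1, which has the processed pseudogenes Tdgf1-ps1 and Tdgf1-ps2.

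Promoter windows were found in the RefSeq table for 4 of the 9 members, which are Nodal, Inhbb, Tdgf1 and Cer1. Each window holds 250 bases before and 50 after the start. Matches to a SMAD-binding motif (CAGAC, on either strand) and a FOXH1-binding motif (TGTNNATT, on either strand) were counted, because Smad2, Smad3 and Foxh1 carry the signal to DNA. The Tdgf1 window held 1 match to the SMAD motif and 2 to the FOXH1 motif, the Cer1 window held 1 to the SMAD motif, and the Nodal and Inhbb windows held neither. Of 32851 promoter windows, 49.6% hold the SMAD motif and 12.2% the FOXH1 motif, so that a match is a description of these letters and not of binding. None of the 4 windows held the E-box CACGTG or the E2F motif GCGGGAA, which 7.2% and 4.6% of all windows hold. The Inhbb window is rich in CpG, with 23 against a median of 7 over all windows, whereas Tdgf1 holds 7. The part before the start is shown for these contrasting windows of Inhbb and Tdgf1, the member with the largest called change and the most abundant member in mESCs, in the direction of the gene (RefSeq, GRCm38.p6), at chr1:119422249-119422498 on the minus strand for Inhbb and at chr9:110946159-110946408 on the minus strand for Tdgf1. Capitals mark the motif matches, and Inhbb has none.
Inhbb: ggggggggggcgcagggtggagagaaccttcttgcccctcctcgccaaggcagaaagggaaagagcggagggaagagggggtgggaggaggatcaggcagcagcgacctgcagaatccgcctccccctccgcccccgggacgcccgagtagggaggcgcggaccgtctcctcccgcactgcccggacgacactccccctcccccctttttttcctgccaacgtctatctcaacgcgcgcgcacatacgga
Tdgf1: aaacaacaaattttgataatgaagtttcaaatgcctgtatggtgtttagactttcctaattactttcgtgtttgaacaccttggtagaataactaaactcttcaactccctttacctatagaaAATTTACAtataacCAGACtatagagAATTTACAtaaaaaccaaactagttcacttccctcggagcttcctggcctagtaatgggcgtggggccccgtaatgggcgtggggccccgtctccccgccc

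To compare levels between genes, the deposited RPKM (read counts over transcript length and library size) were used. In control mESCs Tdgf1 was the most abundant member at 454 ± 105 RPKM (SD, n = 2), followed by Lefty1 at 115 ± 2.67 RPKM, Lefty2 at 41.0 ± 4.58, Gdf3 at 38.3 ± 0.706, Nodal at 31.0 ± 0.143, Inhbb at 20.1 ± 1.19, Smad7 at 14.1 ± 0.298 and Skil at 9.60 ± 0.359 RPKM. Only Lefty2 and Gdf3 overlapped among neighbours in this order, and Cer1 was listed at 0 RPKM in all 4 mESC libraries. In control EBs the order again began with Tdgf1 at 250 ± 11.5 RPKM and Lefty1 at 70.3 ± 1.37 RPKM, and Nodal came next at 40.2 ± 6.40 RPKM. Inhbb, which encodes the beta-B subunit of activin and inhibin, stood last in control EBs at 0.0315 ± 0.0361 RPKM, next to Cer1 at 0.063 ± 0.0651 RPKM. In Zmym2+/+ embryos every member lay below its level in control mESCs except Cer1, from 6.58 ± 3.51 RPKM for Smad7 (SD, n = 6) down to 0.0573 ± 0.0433 RPKM for Gdf3, and the ranges of all neighbours in the order overlapped. Embryos and lines were normalized by their own library totals, and the difference between them was not tested.

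The first question was whether embryos without Zmym2 differ in these genes at E8.5. Gdf3 was the member that changed: it was higher in all 6 Zmym2-/- embryos than in any Zmym2+/+ embryo. The other 8 members were not called, and the spread among embryos of the same genotype was large for several of them. Of the 9 members, edgeR called 1 higher and 0 lower, as did DESeq2, and 3 had an unadjusted p under 0.05, each of them upward. Over all genes tested, 0.524% were called, 0.51% as higher and 0.0132% as lower. The median log2 fold change of the members was 0.29, against 0.03 over all genes.

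**Figure D1:**
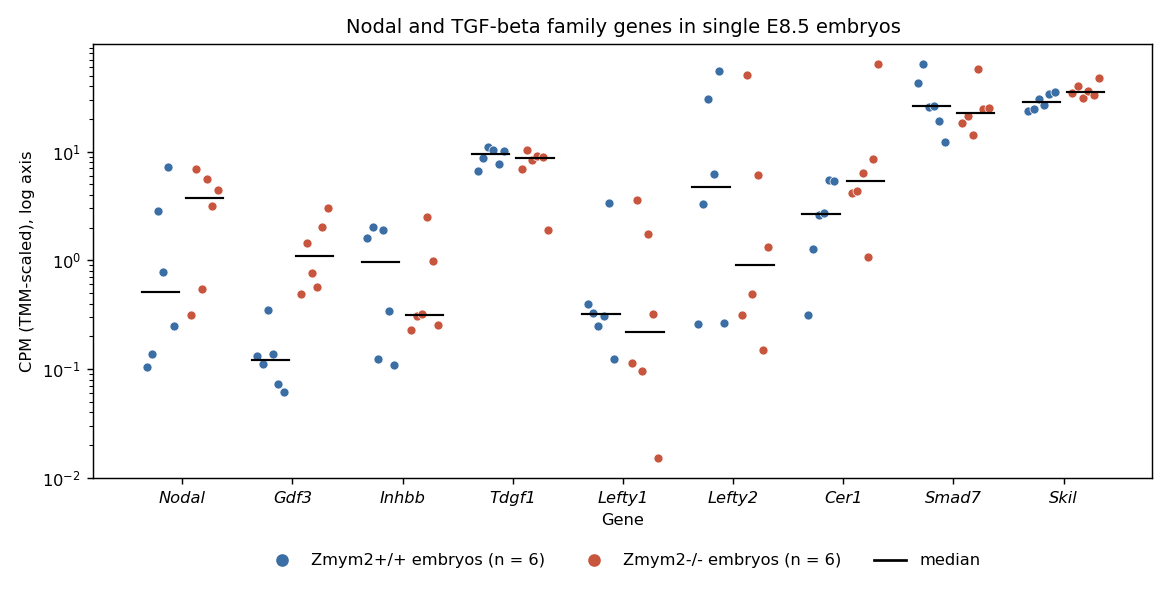
Levels of the 9 genes in single E8.5 embryos, in CPM on a log axis, with a point for each embryo and a black line at the median of each genotype (6 Zmym2+/+ in blue, 6 Zmym2-/- in red). The genotypes are separate for Gdf3, at 0.062 to 0.350 against 0.487 to 3.03 CPM, and overlap for the other 8 genes.

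Gdf3 (ENSMUSG00000030117, chromosome 6, 122605403 to 122610087), a ligand that shares Nodal's receptors and co-receptor, had 0.131, 0.110, 0.350, 0.139, 0.0727 and 0.062 CPM in Zmym2+/+ embryos 1 to 6. In Zmym2-/- embryos 1 to 6 it had 0.487, 1.43, 0.764, 0.562, 2.03 and 3.03 CPM. The values are low in both genotypes, from 3 to 17 counts in Zmym2+/+ and from 23 to 201 counts in Zmym2-/-, and they do not overlap. How many of all genes lack overlap between these embryos was not counted. The log2 fold change was 3.24 (SE 0.572, adjusted p = 0.0181, edgeR), or 9.45-fold. Within the embryos whose names begin with H it was 3.50 (adjusted p = 0.324) and within those that begin with J it was 2.81 (adjusted p = 0.324), so that the call was lost at a fold of similar size. The same held with the number in the embryo's name as a block, over the 7 embryos whose number holds both genotypes (3.02, adjusted p = 0.201), and with the sample number as a block (3.10, adjusted p = 0.214). In the H series 4 embryos were Zmym2+/+ and 2 Zmym2-/-, against 2 and 4 in the J series. The call was also lost without Zmym2+/+ embryo 1, 4 or 6 (adjusted p = 0.0539, 0.0562 and 0.0535, with log2 fold changes of 3.22, 3.24 and 3.07).

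The highest values of Gdf3 were those of Zmym2-/- embryos 5 and 6, which also stood apart in markers of other cell types. Pou5f1, a marker of pluripotent cells, had 59.9 and 169 RPKM in these embryos and 1.33 to 28.1 RPKM in the other 10. Their 5 markers of primitive streak (T, Eomes, Mixl1, Mesp1 and Gsc) summed to 50.7 and 122 RPKM, against 6.78 to 32.7 RPKM in the other 10. Lower than elsewhere were their 4 cardiac markers (Myl7, Tnnt2, Nkx2-5 and Actc1), at 150 and 24.3 against 225 to 709 RPKM. No streak or cardiac marker was called between genotypes, by edgeR or DESeq2. All 4 markers of general pluripotency, Pou5f1 among them, were above 0.1 RPKM, with summed levels of 114 to 430 RPKM in Zmym2+/+ and 163 to 598 RPKM in Zmym2-/- embryos. By this sum Zmym2-/- embryo 5, at 337 RPKM, lay within the Zmym2+/+ range, and embryo 6 was the highest. Of the 8 naive markers 7 were above 0.1 RPKM, Prdm14 stayed under 0.1 RPKM in every embryo, and summed levels were 6.98 to 24.9 RPKM in Zmym2+/+ and 9.71 to 33.1 RPKM in Zmym2-/-. Zmym2-/- embryos 5 and 6 had naive sums of 27.8 and 33.1 RPKM, and embryo 4 had 30.4 RPKM. None of the 12 genes on the general and naive lists was called (edgeR; 1 reached an unadjusted p under 0.05, upward, and DESeq2 called none). Without embryos 5 and 6, Gdf3 had a log2 fold change of 2.47 and an adjusted p of 0.0887. The part of cell composition, or of these marker differences, in the Gdf3 result was not tested. In bulk RNA of whole embryos, more cells that express a gene cannot be told apart from more RNA per cell.

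The other ligands were not called. Nodal (ENSMUSG00000037171, chromosome 10, 61417972 to 61425338) had a lowest value of 0.105, a median of 0.512 and a highest value of 7.29 CPM in Zmym2+/+ embryos, and 0.315, 3.78 and 6.86 CPM in Zmym2-/- embryos. The genotypes overlapped throughout, and the log2 fold change of 0.87 had an SE of 0.983 (adjusted p = 0.756). Inhbb (ENSMUSG00000037035, chromosome 1, 119415465 to 119422248) had 0.108, 0.968 and 2.04 CPM at its lowest, median and highest among Zmym2+/+ embryos, against 0.229, 0.314 and 2.52 CPM among the Zmym2-/- (log2 fold change -0.40, SE 0.817, adjusted p = 0.876). The name series separated Inhbb where the genotype did not: the 6 embryos of the H series had 0.339 to 2.52 CPM and the 6 of the J series 0.108 to 0.318 CPM, and Inhbb was the only 1 of the 9 members without overlap between the series. This was noticed after the values were seen, and the share of all genes that separate by series was not counted. The values of the J series rest on 6 to 20 counts. With the series as a covariate, the log2 fold change of Inhbb was 0.68 (adjusted p = 0.600), and within the H and J series it was 0.26 and 1.25 (adjusted p = 1.00 and 0.346). The direction of Inhbb in embryos is therefore not settled by these libraries.

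Tdgf1 (ENSMUSG00000032494, chromosome 9, 110939603 to 110946158) was steady across 11 of the 12 embryos, at 6.65 to 11.04 CPM, whereas Zmym2-/- embryo 6 had 1.89 CPM. Its log2 fold change was -0.26 (SE 0.315, adjusted p = 0.771). Within Zmym2+/+ embryos, the SD of its log2 CPM was 0.28, which lies at the 31.8 percentile of the 13830 genes that reach 1 CPM on average, and within Zmym2-/- embryos, embryo 6 included, it was 0.89, at the 90.4 percentile.

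Among the secreted inhibitors, Lefty2 varied most. It had 0.262, 3.33, 30.3, 6.18, 55.2 and 0.263 CPM in Zmym2+/+ embryos 1 to 6, a 211-fold range, and 0.315, 51.0, 0.493, 6.06, 0.149 and 1.31 CPM in Zmym2-/- embryos 1 to 6, a 343-fold range. The high and the low embryos were spread over both genotypes, and the SD of log2 CPM was at the 99.8 percentile of genes within Zmym2+/+ and at the 99.7 percentile within Zmym2-/- embryos. The log2 fold change between genotypes was -0.69 with an SE of 1.42 (adjusted p = 0.879), and it was -3.27 without Zmym2-/- embryo 2 and 0.29 without Zmym2+/+ embryo 5, neither of them called. Nodal itself ranged over 69.6-fold in Zmym2+/+ embryos, at the 99.2 percentile. The low ends of these ranges are few counts, so that the folds are rough. They are 4 counts for Nodal and 10 for Lefty2 in Zmym2+/+, and 6 for Lefty2 in Zmym2-/- embryos. Lefty1, which marks the midline where Lefty2 marks the left lateral plate, had at most 0.393 CPM in 5 Zmym2+/+ embryos and 3.39 CPM in the other, embryo 5, and 0.0151 to 3.57 CPM among the 6 Zmym2-/- (log2 fold change 0.29, SE 1.08, adjusted p = 0.940). The lowest of these Zmym2-/- values is 1 count.

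Lefty2 was highest in the embryos in which Nodal was highest: Zmym2+/+ embryo 5 had 7.29 CPM of Nodal and 55.2 CPM of Lefty2, and Zmym2-/- embryo 2 had 6.86 and 51.0 CPM. Over the 12 embryos, log2(CPM + 0.1) of the pair correlated at Pearson's r = 0.63 (permutation p = 0.0343, adjusted p = 0.177) and Spearman's rho = 0.63 (permutation p = 0.0328, adjusted p = 0.309), adjusted over 36 pairs of members. Without the 2 embryos farthest from the median of Nodal, r was 0.66. Within the H series r was 0.46 (exact permutation p = 0.369) and within the J series 0.83 (exact permutation p = 0.0347), each over 6 embryos. The relation does not pass the correction. Zmym2-/- embryos 4, 5 and 6 had 3.15 to 5.57 CPM of Nodal with 0.149 to 6.06 CPM of Lefty2, below what the other high embryos had.

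**Figure D2:**
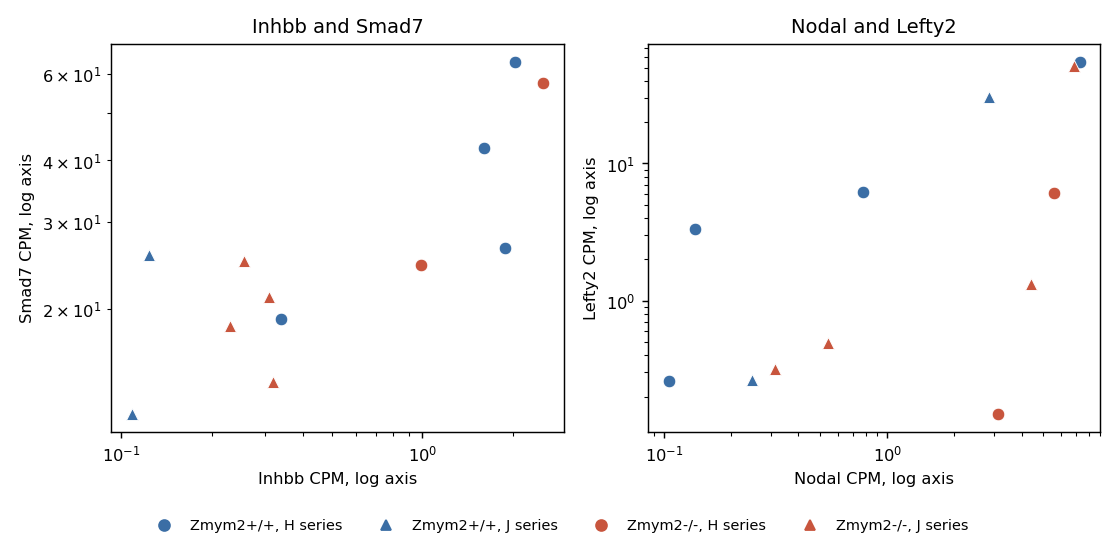
Inhbb against Smad7 (left) and Nodal against Lefty2 (right) in 12 single E8.5 embryos, in CPM on log axes, with a point for each embryo (blue Zmym2+/+, red Zmym2-/-; circles for the H series, triangles for the J series). The J series lies at 0.108 to 0.318 CPM of Inhbb, left of all embryos of the H series, and the 2 embryos with the most Nodal, at 7.29 and 6.86 CPM, have 55.2 and 51.0 CPM of Lefty2.

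Smad7, which blocks activated receptors, and Inhbb were the single pair whose r over the 12 embryos passed the correction. By rank the pair did not pass (Spearman's rho = 0.73, permutation test, adjusted p = 0.309). The series also separate Inhbb, and the pair was therefore read within each series. In the H series r was 0.81 (exact permutation p = 0.0292) and rho was 0.89 (exact permutation p = 0.0333). In the J series r was 0.12 (exact permutation p = 0.819) and rho was 0.03 (exact permutation p = 1.0). Adjusted over the 72 relations within series, the p of r was 0.608 in the H and 0.894 in the J series.

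Cer1 (ENSMUSG00000038192, chromosome 4, 82881751 to 82885148), an antagonist of Nodal and BMPs made by endoderm, had 0.314 to 5.48 CPM in Zmym2+/+ embryos and 4.16, 4.36, 6.33, 1.08, 8.47 and 64.4 CPM in Zmym2-/- embryos 1 to 6. The log2 fold change of 2.32 (SE 0.893, adjusted p = 0.370) was carried by embryo 6, without which it was 0.72. The 4 markers of definitive endoderm (Sox17, Foxa2, Trh and Cer1 itself) were all above 0.1 RPKM, and their summed level was 18.0 to 34.3 RPKM in Zmym2+/+ and 16.1 to 247 RPKM in Zmym2-/- embryos, the highest in embryo 6, with medians of 28.2 and 28.3 RPKM. None was called (edgeR; Trh and Cer1 reached an unadjusted p under 0.05, upward, and DESeq2 called none), and the log2 fold changes of the other 3 were 1.87 for Trh, 0.40 for Foxa2 and -0.20 for Sox17. Their part in the Cer1 result was not tested.

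Of the intracellular inhibitors, Smad7 (ENSMUSG00000025880) had 12.2, 26.1 and 63.5 CPM at its lowest, median and highest in Zmym2+/+ and 14.2, 22.8 and 57.4 CPM in Zmym2-/- embryos. The genotypes overlapped (log2 fold change -0.24, SE 0.398, adjusted p = 0.847). Skil (ENSMUSG00000027660, chromosome 3, 31095058 to 31122577), which encodes SnoN, a repressor of Smad-driven transcription, had 23.7, 28.5 and 35.1 CPM in Zmym2+/+ and 31.0, 35.3 and 48.0 CPM in Zmym2-/- embryos. Skil was among the least variable members, with 3 Zmym2-/- embryos above all Zmym2+/+ embryos, and its log2 fold change of 0.35 (SE 0.145, unadjusted p = 0.0290) had an adjusted p of 0.382.

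Of the wider pathway, a list of 67 genes that includes the members, 66 were tested in embryos. Gdf3 was the only 1 called, by edgeR as by DESeq2, and 0 were called lower. Of all genes, edgeR called 0.524%. An unadjusted p under 0.05 was reached by 6 genes upward and by 3 downward. The median log2 fold change of the list was 0.16, against 0.03 over all genes. The list holds 16 ligands, 13 receptors and co-receptors, 10 secreted or membrane inhibitors, 2 processing enzymes, 7 signal transducers and cofactors, 9 intracellular inhibitors and 10 targets. Of these, Gdf1 was in none of the 3 count tables.

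The second question was whether the same genes differ in mESCs, where the pathway is active. Here 4 of the 8 members tested were called: Inhbb and Smad7 fell, and Gdf3 and Skil rose, in Zmym2-/- lines. Nodal, Tdgf1, Lefty1 and Lefty2 were not called. Over all genes, 19.2% were called, 10.3% as higher and 8.94% as lower. The median log2 fold change of the members was 0.02, as was that of all genes.

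Inhbb had 82.8 and 90.7 CPM in control lines 1 and 2 and 20.9 and 21.6 CPM in Zmym2-/- lines 1 and 2. Both Zmym2-/- lines lay far below both controls, and Inhbb fell by 2.03 on the log2 scale (SE 0.103, adjusted p = 1.17e-07, edgeR), a 4.07-fold difference. Ranked by p, Inhbb was 8 of 20159 genes. It was called in all 4 fits that leave out a library, with log2 fold changes of -2.09 to -1.96.

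Smad7 had 65.6 and 64.1 CPM in control and 39.7 and 42.6 CPM in Zmym2-/- lines. It fell by 0.66 on the log2 scale (SE 0.0972, adjusted p = 4.29e-04). Gdf3 had 92.8 and 95.9 CPM in control and 149 and 120 CPM in Zmym2-/- lines, and rose by 0.51 on the log2 scale (SE 0.103, adjusted p = 0.00383). Skil had 96.7 and 92.4 CPM in control and 135 and 116 CPM in Zmym2-/- lines, and rose by 0.41 on the log2 scale (SE 0.0937, adjusted p = 0.00772). For all 3 genes the genotypes did not overlap. The same was true of Nodal, which was not called, so that with 2 libraries a genotype this is a description. How many of all genes lack overlap in mESCs was not counted. In the 4 fits that leave out a library, log2 fold changes were -0.698 to -0.604 for Smad7, 0.345 to 0.666 for Gdf3 and 0.299 to 0.527 for Skil. The rise of Gdf3 in mESCs was 1.42-fold, against 9.45-fold in embryos; the embryos share no library with the lines, and the difference between these folds was not tested.

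Nodal had 66.0 and 66.0 CPM in control and 86.4 and 70.6 CPM in Zmym2-/- lines. Its log2 fold change of 0.25 (SE 0.105) had an adjusted p of 0.116, and without Zmym2-/- line 2 it was 0.40 and called (adjusted p = 0.0110). Tdgf1 had 1008 and 1413 CPM in control and 1016 and 1002 CPM in Zmym2-/- lines, so that control line 2 alone stood apart. Its log2 fold change was -0.26 (SE 0.117, adjusted p = 0.143) and, without control line 1, -0.49 (adjusted p = 1.40e-04). Lefty1 had 202 and 210 CPM in control and 261 and 169 CPM in Zmym2-/- lines, 1 above and 1 below the controls (log2 fold change 0.06, SE 0.146, adjusted p = 0.810), and without Zmym2-/- line 2 it was called at 0.35 (adjusted p = 0.0114). Lefty2 had 99.8 and 118 CPM in control and 110 and 102 CPM in Zmym2-/- lines, with overlap (log2 fold change -0.03, SE 0.0971, adjusted p = 0.869). Leaving out a library leaves a genotype with a single line, whose spread is then taken from the other genotype.

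**Figure D3:**
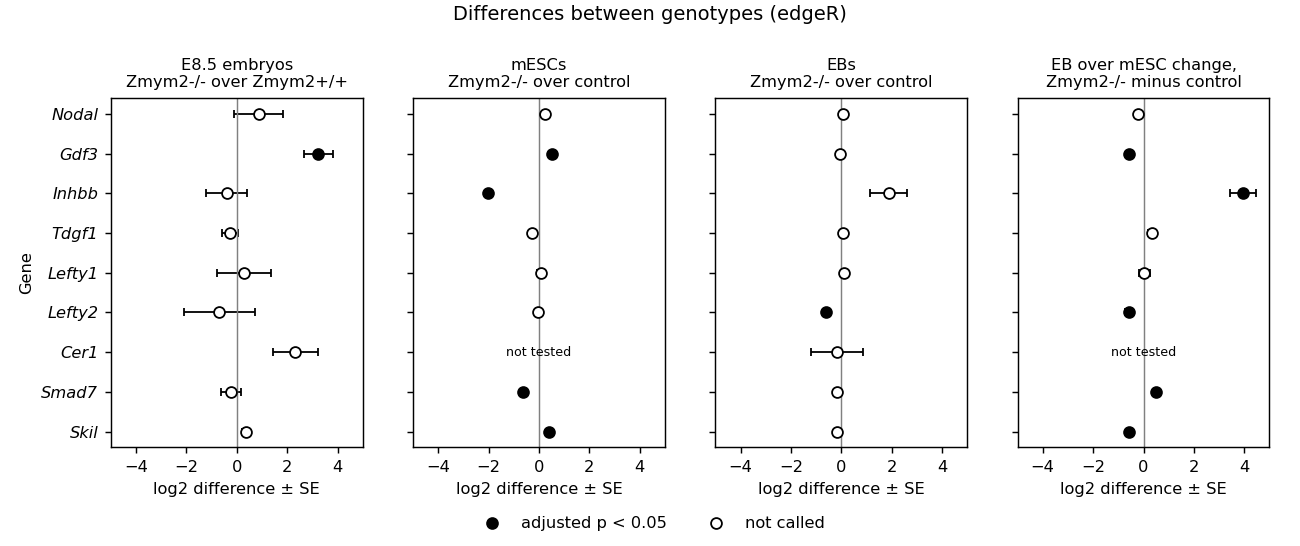
Log2 differences of the 9 genes with their standard errors from edgeR, for Zmym2-/- over Zmym2+/+ embryos, Zmym2-/- over control mESCs, Zmym2-/- over control EBs, and the difference between genotypes in the change from mESC to EB. Filled points passed an adjusted p of 0.05; Gdf3 (3.24) is the filled point in embryos, Inhbb (-2.03), Smad7 (-0.66), Gdf3 (0.51) and Skil (0.41) are those in mESCs, and Lefty2 (-0.62) is the one in EBs.

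In the pathway list, 8 genes were higher and 16 lower of 62 tested in mESCs, or 38.7%, with a median log2 fold change of -0.30 against 0.02 over all genes. The share was 37% without the members, against 19.2% of all genes. Ligands gave 3 higher and 5 lower of 13, receptors and co-receptors 0 and 2 of 12, and both processing enzymes were lower. Signal transducers and cofactors gave 1 higher and 3 lower of 7, intracellular inhibitors 1 and 4 of 9, and targets 3 and 0 of 10. None of 9 secreted and membrane inhibitors was called (edgeR; 1 was lower at an unadjusted p under 0.05, and DESeq2 called none).

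Beside the members, the ligands Bmp7 and Bmp4 fell in mESCs, from 8.44 ± 0.974 to 2.03 ± 0.654 CPM (SD, n = 2; log2 fold change -2.06, adjusted p = 8.73e-05) and from 19.3 ± 4.17 to 7.73 ± 0.614 CPM (-1.32, adjusted p = 1.66e-04). Pcsk6 and Furin, the convertases that cut Nodal's precursor, fell from 57.7 ± 5.43 to 24.0 ± 4.36 CPM (-1.26, adjusted p = 2.91e-05) and from 29.8 ± 0.88 to 15.7 ± 0.762 CPM (-0.93, adjusted p = 1.73e-04). Id3, a target of BMP signals, rose from 22.4 ± 2.09 to 63.4 ± 2.37 CPM (1.499, adjusted p = 1.75e-06). Gdf15, a distant member of the family, rose from 6.61 ± 0.462 to 11.8 ± 3.17 CPM (0.83, adjusted p = 0.00925) and Foxh1 from 37.7 ± 2.71 to 50.7 ± 0.56 CPM (0.43, adjusted p = 0.0113). These are levels of RNA and no measure of signalling.

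Markers of cell state moved between the genotypes in the same mESC libraries. Of 8 naive markers, 6 were lower and 0 higher in Zmym2-/- lines, with summed levels of 681 to 729 RPKM in control and 464 to 501 RPKM in Zmym2-/-. Of 5 formative and primed markers (Fgf5, Otx2, Pou3f1, Dnmt3b and Fst), 4 were higher and 0 lower, with summed levels of 39.5 to 54.7 RPKM in control and 128 to 180 RPKM in Zmym2-/-. Klf4, for example, fell by 1.88 on the log2 scale and Otx2 rose by 2.42. Their part in the results on Inhbb, Smad7, Gdf3 and Skil was not tested.

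In EBs at day 3, Lefty2 was the only member called, and it fell in Zmym2-/- lines. Of 9 members tested, edgeR called 0 higher and 1 lower, as did DESeq2, and an unadjusted p under 0.05 was reached by 1 upward (Inhbb) and by 2 downward. Over all genes 7.39% were called, 4.62% as higher and 2.77% as lower. The median log2 fold change was -0.05 for the members and 0.01 for all genes.

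Lefty2 had 57.4 and 71.7 CPM in control and 42.6 and 41.4 CPM in Zmym2-/- lines. The genotypes did not overlap, which was also true of Gdf3, Inhbb and Smad7, none of them called in EBs. With 2 libraries a genotype this is a description, and the share of all genes without overlap was not counted. Lefty2 fell by 0.62 on the log2 scale (SE 0.0935, adjusted p = 0.00169, edgeR). In the 4 fits that leave out a library its log2 fold change was -0.771 to -0.451. Lefty1, its neighbour and near copy, had 124 and 121 CPM in control and 146 and 115 CPM in Zmym2-/- lines (log2 fold change 0.10, SE 0.0873, adjusted p = 0.594). The difference between the log2 fold changes of the 2 genes was not tested.

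Inhbb was close to the limit of detection in EBs, with 8 and 1 counts in control and 30 and 13 counts in Zmym2-/- lines. These are 0.238 and 0.027 CPM against 0.580 and 0.368 CPM, higher in both Zmym2-/- lines, with a log2 fold change of 1.88 that was not called (SE 0.734, adjusted p = 0.164). Without control line 1, which leaves a control with 1 count, it was called at 4.02 (adjusted p = 0.0162).

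The other members called in mESCs were not called in EBs. Gdf3 had 54.1 and 55.5 CPM in control and 53.4 and 52.4 CPM in Zmym2-/- lines (log2 fold change -0.05, SE 0.0671, adjusted p = 0.764). Smad7 had 79.2 and 83.1 CPM in control and 69.5 and 74.3 CPM in Zmym2-/- lines, lower in both but not called (-0.17, SE 0.0656, adjusted p = 0.151). Skil had 146 and 176 CPM in control and 149 and 141 CPM in Zmym2-/- lines (-0.15, SE 0.0754, adjusted p = 0.289), and was called without control line 1 (-0.28, adjusted p = 0.00821).

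Nodal had 92.6 and 73.9 CPM in control and 82.9 and 89.5 CPM in Zmym2-/- EBs (log2 fold change 0.05, SE 0.0925, adjusted p = 0.816). Tdgf1 had 626 and 668 CPM in control and 624 and 741 CPM in Zmym2-/- EBs (0.08, SE 0.0691, adjusted p = 0.580). Both overlapped. Without Zmym2-/- line 1, Tdgf1 was called at 0.20 (adjusted p = 0.0495), and without Zmym2-/- line 2, Lefty1 was called at 0.25 (adjusted p = 0.00744). Cer1 had 1 to 8 counts in each EB library, too few to compare.

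Of the pathway list, 3 genes were higher and 5 lower of 64 tested in EBs, or 12.5%, with a median log2 fold change of -0.03. The share was 12.7% without the members, against 7.39% of all genes. Id3 rose again, from 65.3 ± 5.92 to 123 ± 15.5 CPM (0.92, adjusted p = 5.41e-05). Fst, which binds activin, rose from 30.2 ± 6.02 to 58.4 ± 4.31 CPM (0.95, adjusted p = 2.94e-04). Pmepa1, an inhibitor that is itself a target of TGF-beta, fell from 25.7 ± 3.15 to 16.0 ± 0.845 CPM (-0.68, adjusted p = 0.00203), and so did Smad3 (-0.44, adjusted p = 0.0185), Smad1 (-0.36, adjusted p = 0.0320) and Furin (-0.31, adjusted p = 0.0312). None of 14 ligands and none of 12 receptors and co-receptors was called (edgeR; 2 ligands and 1 receptor upward and 1 receptor downward reached an unadjusted p under 0.05, and DESeq2 called none). Naive and formative markers were closer than in mESCs. In EBs 1 naive marker was higher and 1 lower of 8, with summed levels of 62.4 to 74.5 RPKM in control and 66.2 to 71.8 RPKM in Zmym2-/-. Formative and primed markers gave 1 higher and 1 lower of 5. Primitive streak markers summed to 8.10 to 14.2 RPKM in control and 15.0 to 16.5 RPKM in Zmym2-/- EBs, with 0 of 5 called. Definitive endoderm markers summed to 498 to 616 against 715 to 1148 RPKM, with 1 of 4 higher by edgeR and 0 by DESeq2. Cer1, which is on this list, was under 0.1 RPKM in both Zmym2-/- EB libraries. The same sum was 121 to 176 RPKM in control mESCs, with Foxa2 and Cer1 under 0.1 RPKM, and 18.0 to 34.3 RPKM in Zmym2+/+ embryos. It is therefore no measure of endoderm in these cultures. The part of these markers in the Lefty2 result was not tested.

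The last question was how the members change as mESCs become EBs, and whether the change depends on Zmym2. In control lines all 8 members present in both tables were called: Gdf3, Lefty1, Lefty2, Tdgf1 and Inhbb fell and Nodal, Smad7 and Skil rose. In Zmym2-/- lines the same 5 fell, Smad7 rose, and Nodal and Skil were not called. Over all 18926 genes, 46.6% were called in control lines (23% higher, 23.6% lower) and 45.2% in Zmym2-/- lines (23.1% higher, 22.1% lower), so that calls are common in this comparison. The median log2 fold change of the members was -0.75 in control and -0.64 in Zmym2-/- lines, against 0.00 and -0.01 over all genes. These comparisons use the mESC and EB libraries of the genotype comparisons again.

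**Figure D4:**
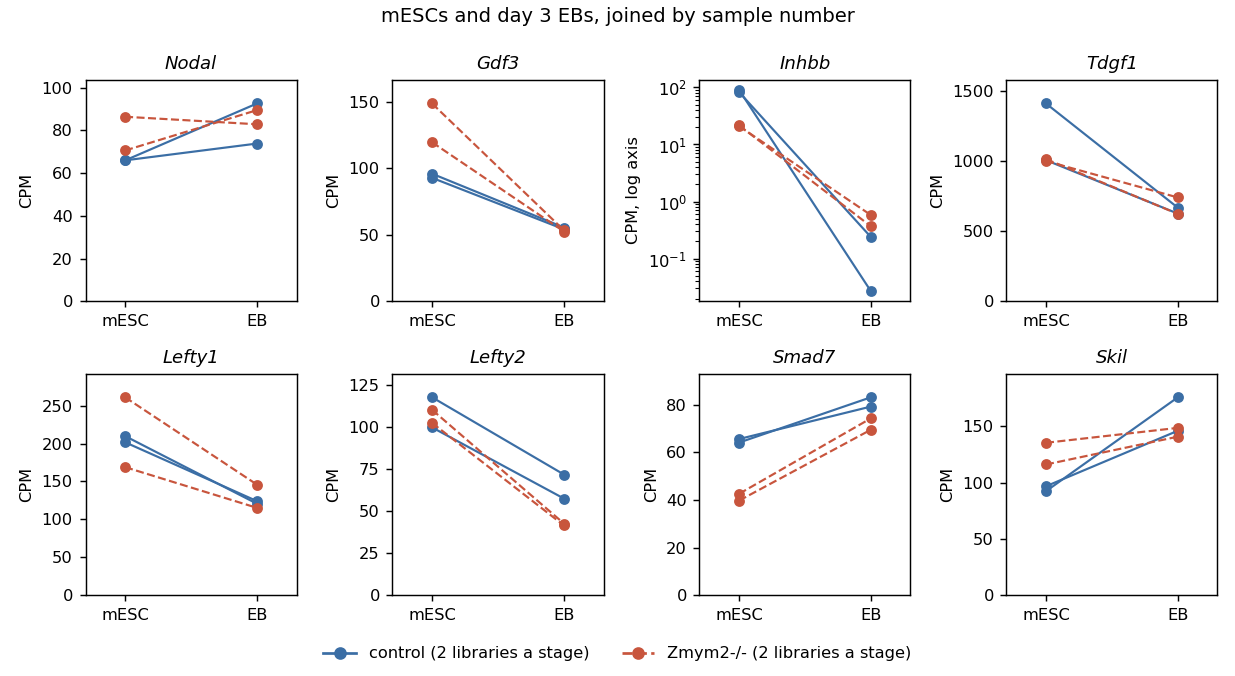
Levels of 8 genes in mESCs and day 3 EBs, in CPM, with lines joining libraries of the same sample number (solid blue for control, dashed red for Zmym2-/-, 2 libraries a stage; Inhbb on a log axis, the others on axes from 0). Inhbb falls from 82.8 and 90.7 CPM in control and 20.9 and 21.6 CPM in Zmym2-/- mESCs to under 1 CPM in all EBs, and Smad7 rises from 39.7 and 42.6 CPM in Zmym2-/- mESCs to 69.5 and 74.3 CPM in Zmym2-/- EBs.

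Inhbb was the member with the largest change. It fell by 9.38 on the log2 scale in control lines (SE 0.266, adjusted p = 1.08e-10) and fell by 5.43 in Zmym2-/- lines (SE 0.221, adjusted p = 2.16e-09). Its interaction, the change in Zmym2-/- less the change in control, was 3.95 (SE 0.515, adjusted p = 0.00119, edgeR) and was called in all 8 fits that leave out a library, at 3.06 to 6.08. The size of the interaction rests on control EBs with 8 and 1 counts.

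The other interactions were smaller. Those of Gdf3 (-0.56, SE 0.129, adjusted p = 0.0274), Lefty2 (-0.59, SE 0.149, adjusted p = 0.0404) and Skil (-0.56, SE 0.133, adjusted p = 0.0291) were lower in Zmym2-/- lines, and that of Smad7 (0.48, SE 0.106, adjusted p = 0.0217) was higher. With Inhbb, 5 of 8 members were called, against 5.25% of all genes (3.07% higher, 2.18% lower). The members were chosen with earlier results of these data known, so that this share is a description. Nodal (-0.20, adjusted p = 0.538), Lefty1 (0.03, adjusted p = 0.962) and Tdgf1 (0.34, adjusted p = 0.307) were not called. The 4 smaller calls were easily lost: of 8 fits that each leave out a library, 1 kept Gdf3 (without line 2 of the Zmym2-/- mESCs, adjusted p = 0.00217), 3 kept Lefty2 (without line 1 of the control EBs, line 2 of the control mESCs or line 2 of the Zmym2-/- mESCs), 2 kept Skil (without line 1 of the control EBs or line 2 of the Zmym2-/- mESCs) and 3 kept Smad7 (without line 1 of the Zmym2-/- EBs or either Zmym2-/- mESC line). Their values stayed at -0.71 to -0.39, -0.72 to -0.42, -0.67 to -0.43 and 0.43 to 0.53. Tdgf1 was called at 0.56 without control mESC line 1 (adjusted p = 0.0251).

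The levels behind these interactions differ by gene. Gdf3 fell by 0.78 in control and fell by 1.34 on the log2 scale in Zmym2-/- lines (adjusted p = 1.69e-05 and 1.97e-07), starting from the higher level in Zmym2-/- mESCs and reaching 52.4 to 55.5 CPM in EBs of either genotype. Smad7 rose by 0.32 in control and by 0.81 in Zmym2-/- lines (adjusted p = 0.00302 and 2.97e-06), starting from the lower level in Zmym2-/- mESCs. Skil rose by 0.77 in control (adjusted p = 2.44e-05) and had a log2 fold change of 0.20 in Zmym2-/- lines (adjusted p = 0.0978). In these 3 genes the genotypes were apart in mESCs and not called in EBs. Lefty2 was the reverse: the genotypes overlapped in mESCs, and it fell by 0.75 in control and fell by 1.34 in Zmym2-/- lines (adjusted p = 7.70e-05 and 7.26e-07).

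Lefty1 fell by 0.75 in control and fell by 0.72 in Zmym2-/- lines (adjusted p = 0.00154 and 0.00217), and Tdgf1 had log2 fold changes of -0.90 and -0.56 (adjusted p = 5.80e-05 and 0.00221). Nodal had a log2 fold change of 0.33 in control lines (adjusted p = 0.0256) and 0.13 in Zmym2-/- lines (adjusted p = 0.364). The control call of Nodal was lost without control line 1 of the EBs (0.14, adjusted p = 0.397) and without control line 1 or 2 of the mESCs (adjusted p = 0.0931 and 0.0922).

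In the pathway list, 28 genes rose and 19 fell of 62 in control lines (75.8%), and 33 rose and 11 fell in Zmym2-/- lines (71%), with medians of 0.28 and 0.45 on the log2 scale. Without the members the shares were 72.2% and 70.4%, against 46.6% and 45.2% of all genes. Receptors and co-receptors rose in 9 and fell in 2 of 12 in control lines, and in 9 and 1 in Zmym2-/- lines, while targets rose in 8 and fell in 1 of 10 and in 7 and 1. Fst had the smallest p of those that rose in either genotype, with log2 fold changes of 3.10 in control and 4.57 in Zmym2-/- lines. Foxh1 (1.34 and 0.97) rose in both as well. Bmp4 (-2.54 and -1.62) and Tgif1, a corepressor of Smads (-0.61 and -0.47), fell in both, and the largest adjusted p among these values was 7.27e-05.

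Of the list, 9 genes had a higher and 5 a lower interaction of 62, or 22.6%, against 5.25% of all genes. Without the members it was 7 higher and 2 lower of 54, or 16.7%. Those named by p beside the members were Pcsk6 (1.27, adjusted p = 0.00227), Fst (1.47, adjusted p = 0.00287), Bmp7 (2.17, adjusted p = 0.00996) and Bmp6, a BMP ligand (1.42, adjusted p = 0.0116), which were higher, and Id3 (-0.58, adjusted p = 0.0373) and Gdf11, a ligand close to myostatin (-1.36, adjusted p = 0.0437), which were lower. Naive markers gave 6 higher and 1 lower interaction of 8, and formative and primed markers 1 higher and 4 lower of 5, in the same libraries; their part in the members' interactions was not tested.

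Gdf3 and Nodal were each compared with the other genes of a set of 17426 by their profile over the 6 groups, as the root mean square difference of 6 group means of log2 CPM, each centred on the gene's own mean. Nearest to Gdf3 were Dppa4 (0.496) and Nanog (0.557), both genes of pluripotent cells, and Gm21411 (0.580). Nearest to Nodal were Bcl11a (0.327), Adad2 (0.351) and Rpl17-ps4 (0.394). The groups differ mostly between embryos and lines, so that these values describe a shared contrast of that kind.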

How the data were processed

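RNA-seq libraries of 12 single embryos, 4 mESC and 4 EB cultures were used. The authors trimmed paired reads with Trimmomatic 0.34, aligned them to mm10 (GRCm38) with STAR 2.7.8a, marked duplicates with Picard 2.9.0 and deposited raw counts per gene from HTSeq. The strand setting and annotation of the counting are not given in the sources used here. The authors also deposited RPKM from StringTie 1.3.5, which served only to order genes by level and to sum markers.

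Each comparison was fitted on the whole count table with edgeR 4.0.16 (R 4.3.3): TMM scaling, genes with at least 10 counts over the libraries of the fit, the quasi-likelihood test, and Benjamini-Hochberg adjustment over all genes tested, called under 0.05. SEs were derived from the size of each log2 fold change and its F statistic (size divided by root F). Comparisons of mESCs with EBs and the interaction used all 8 libraries and the genes in both tables. Alternatives were DESeq2 1.42.0, RLE scaling, other count filters, libraries left out, sex, and blocks or covariates by sample number and by the letter and number in the embryos' names. Correlations used log2(CPM + 0.1), with 100000 permutations over 12 embryos and exact permutations within a series.

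The named genes were all 9 members, Zmym2, at most 4 further pathway genes in each direction and comparison by p, and the 3 genes most like Nodal and Gdf3. The members, pathway list and markers were chosen with earlier results of these data known. Sample numbers were not taken to pair libraries, across stages or genotypes, since the labels do not say what they share. Some items, withheld for evaluation, are not reported here.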

Additional observations from a re-analysis of the deposited data

Results flagged for a closer look

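Within a genotype, the highest embryo stood far from the rest in 6 of 18 groups of 6 embryos. Far means a gap to the next embryo, over the range of the 6, above 0.625. The rule was applied to CPM and not to log CPM, so that a long upper tail alone can meet it. These were Gdf3 in Zmym2+/+ embryo 3 at 0.350 CPM, Lefty1 in Zmym2+/+ embryo 5 at 3.39 CPM, Lefty2 in Zmym2-/- embryo 2 at 51.0 CPM and Cer1 in Zmym2-/- embryo 6 at 64.4 CPM. Zmym2-/- embryo 4 was the highest of its genotype for both Inhbb, at 2.52 CPM, and Smad7, at 57.4 CPM. The groups are not independent, since the same 12 embryos give every gene.

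The change from mESCs to EBs differed between the genotypes, by the interaction term, for 5 members on the log2 scale: Inhbb at 3.95, Smad7 at 0.48, Gdf3 at -0.56, Lefty2 at -0.59 and Skil at -0.56.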

How the results depend on the processing

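Of 702 member values under alternatives, 631 kept direction and side of the threshold, 34 lost a call, 11 gained one and 26 changed sign, of which 0 were called. With the cause not tested, the count of members higher in embryos was 0 with the number in the embryo's name (a possible litter, which the labels do not state) or the replicate number as a block, within the H series, within the J series and without Zmym2-/- embryos 5 and 6. Uncalled values that changed sign in embryos were Inhbb at 0.169 (name number as block), 0.681 (series covariate), 0.263 (H) and 1.251 (J), Lefty1 at -0.543 (replicate block) and -0.155 (H), Smad7 at 0.085 (series covariate), 0.106 (H) and 0.052 (J), and Tdgf1 at 0.115 (H). Over all genes in embryos DESeq2 called 324 higher and 32 lower, against 116 and 3 by edgeR, the replicate block 49 and 0, and the name number as a block 1 and 0.

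With the sample number as a replicate block across stages, as if it named the same line, 2 members rose in Zmym2-/- lines and not 1 (Skil at 0.21, adjusted p = 0.0190), and the interaction of Tdgf1 was called (0.32, adjusted p = 0.0299). It changed no other member call and raised the interaction calls over all genes from 581 to 1299 higher and from 412 to 1026 lower. The labels do not state this pairing, and with 2 libraries a group its check is a single value in each genotype (r = 0.153 in control and 0.374 in Zmym2-/-). Across genotypes, same-number r was -0.042 in mESCs, -0.036 in EBs and -0.452 to 0.413 in embryos, and the block on them took the genes lower in EBs from 558 to 841.

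Leaving out each library in turn, the count of members higher ranged from 0 to 1 in embryos, 2 to 4 in mESCs, 0 to 1 in EBs, 1 to 2 in Zmym2-/- lines from mESCs to EBs and 1 to 2 for the interaction. Members lower ranged from 1 to 2 in EBs and 0 to 3 for the interaction. Log2 values that crossed 0 ranged from -0.819 to 1.811 for Lefty1, -3.268 to 0.293 for Lefty2 and -0.612 to 0.094 for Smad7 in embryos. They ranged from -0.282 to 0.353 for Lefty1, -0.147 to 0.096 for Lefty2 and -0.487 to 0.005 for Tdgf1 in mESCs, and from -0.895 to 1.639 for Cer1, -0.082 to 0.254 for Lefty1, -0.103 to 0.223 for Nodal and -0.052 to 0.201 for Tdgf1 in EBs. From mESCs to EBs, Nodal ranged from -0.004 to 0.287 in Zmym2-/- lines and the interaction of Lefty1 from -0.248 to 0.38.

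The 3 male Zmym2-/- embryos share 1 number in their names, and the labels do not say what it marks. Each genotype of the lines is 2 clones, and depth limits Gdf3 in Zmym2+/+ embryos, Inhbb in EBs and Cer1 in EBs, all at under 20 counts in control libraries. Depth also limits Nodal, Lefty1, Lefty2, Inhbb and Cer1 in some Zmym2+/+ embryos, with lowest values of 4, 8, 10, 6 and 12 counts. Among Zmym2-/- embryos the lowest were 1 count of Lefty1, 6 of Lefty2 and 16 of Inhbb.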
